A study of Catharanthus roseus with 3 samples.

Results

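Tabersonine is a branch-point alkaloid of the terpenoid indole alkaloid (TIA) pathway of Catharanthus roseus (Madagascar periwinkle), and the 6 transcripts described here encode enzymes that modify it or its derivatives. Of these, 5 catalyse steps towards vindoline, which is coupled with catharanthine to give the anti-cancer alkaloid vinblastine: tabersonine 16-hydroxylase (T16H, Cr_TC35206), 16-hydroxytabersonine O-methyltransferase (16OMT, Cr_TC58091), the N-methyltransferase of 16-methoxy-2,3-dihydro-3-hydroxytabersonine (NMT, Cr_TC06574), desacetoxyvindoline 4-hydroxylase (D4H, Cr_TC51001) and deacetylvindoline 4-O-acetyltransferase (DAT, Cr_TC35622). The sixth, tabersonine 19-hydroxylase (T19H, Cr_TC04217), takes tabersonine to side-chain hydroxylated alkaloids instead. The 5 do not cover each reaction of the branch: the substrate of NMT is not the direct product of 16OMT, and what lies between is not followed here. The 6 were chosen by transcript identifier, as the study names them, from the 59220 assembled transcripts, and all 6 were listed in each file. The study had already reported T16H, D4H and DAT as low in root and T19H as low in leaf. Its data include these libraries, so those differences were known before the choice and are only described here. RNA had been taken from leaf, root and flower of mature plants of the variety Prabal grown in the field, and 1 mRNA library per tissue was sequenced, so 3 libraries were compared. No mutant, treatment or transgene was involved, and the number of plants behind each library, their age and the stage of each organ are not given in the sources used here.

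In C. roseus, vindoline formation is known from aerial organs, while roots are known for 19-hydroxylated derivatives of tabersonine. The branch is also split between cells of the leaf: T16H and 16OMT work in the epidermis, NMT activity is associated with chloroplast membranes, and D4H and DAT are found in laticifers and idioblasts, the specialised cells inside the leaf. T16H and T19H are both cytochrome P450 enzymes, 16OMT and NMT transfer methyl groups from S-adenosylmethionine, D4H is a 2-oxoglutarate-dependent dioxygenase, and DAT transfers an acetyl group from acetyl-CoA. Tabersonine 16-hydroxylase is encoded by a pair of related genes in this species, and DAT has a close relative in root, an acetyltransferase that acts on 19-hydroxylated alkaloids. Which of the T16H genes Cr_TC35206 stands for is not given in the sources used here, and only reads that mapped to a single transcript were counted by the authors, so reads shared with a near-identical copy are missing from the values.

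The values are RPKM (reads per kilobase of transcript, scaled for the size of the library), which can be compared between genes within a library. They summed to between 452743 in leaf and 471970 in root, and between 44675 transcripts in leaf and 48814 in root were above 0. With 1 library per tissue there was no spread between replicates, so no test was run and no p-value is given. Transcripts were compared by a rule of size: a pair of tissues was called apart where log2(RPKM + 1) differed by 1 or more, a 2-fold difference on that scale, and the larger value reached 1 RPKM. The added 1 understates the change of low values. Each value also measures whole organs, in which fewer cells of a type and less RNA per cell cannot be told apart. The tissue labels were not checked against marker genes, since the files do not pair the identifiers with gene names.

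Each of the 5 vindoline-branch genes was higher in leaf than in root, and T19H showed the reverse. D4H was the most abundant of the 6 in leaf, with 63.17 RPKM there, 2.39 RPKM in root and 3.45 RPKM in flower. NMT had 43.33 RPKM in leaf, against 6.29 RPKM in root and 16.62 RPKM in flower. 16OMT had 20.23 RPKM in leaf, against 3.44 RPKM in root and 10.08 RPKM in flower. 16OMT, NMT and D4H, the middle steps, therefore shared the order leaf, flower, root. By the rule of size, however, D4H was within 2-fold between flower and root, and 16OMT between leaf and flower. T16H, of which only Cr_TC35206 was followed, had 7.01 RPKM in leaf, 0.04 RPKM in root and 17.29 RPKM in flower, and was the 1 member highest in flower. The related T16H gene was not examined, so the values of T16H here and below need not stand for the entry step as a whole. DAT, the last step, had 6.85 RPKM in leaf, 0.37 RPKM in root and 6.29 RPKM in flower. Its order was that of the middle steps, with leaf and flower close together. T19H had 0.01 RPKM in leaf and 8.96 in root, and it was listed at 0 in flower. Leaf was thus the highest library for 4 of the 5 branch genes, flower for T16H and root for T19H, while of the 36900 transcripts reaching 1 RPKM somewhere 37.7% were highest in leaf, 36.6% in root and 25.7% in flower.

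**Figure D1:**
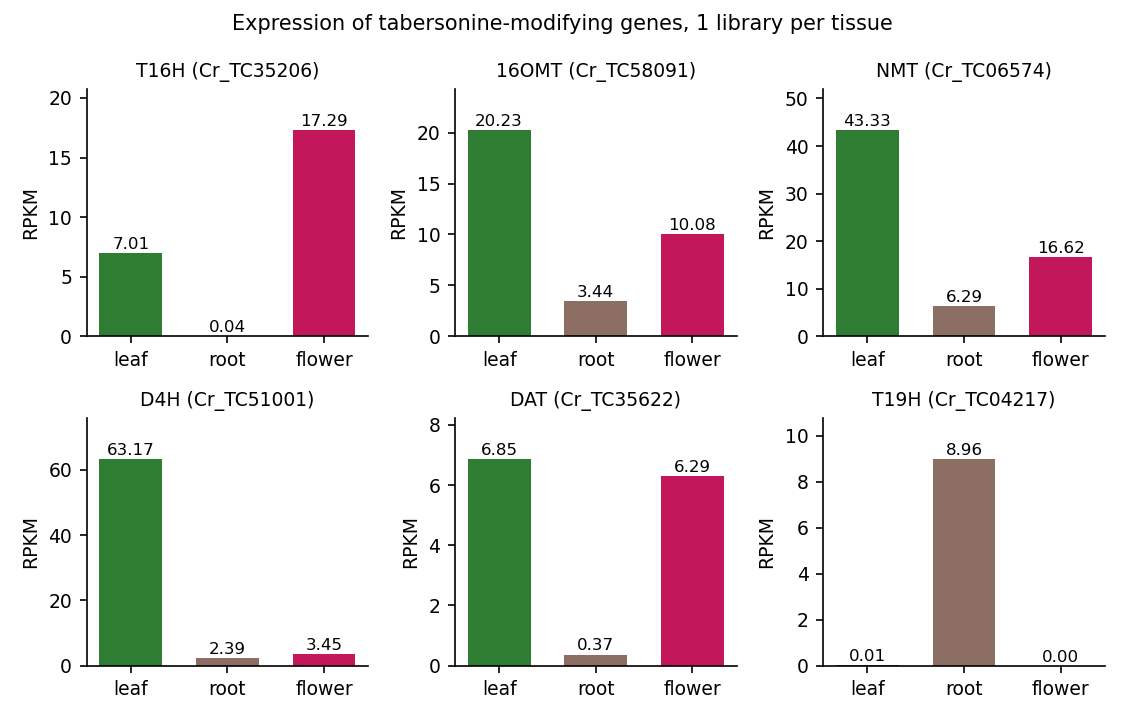
Expression of the 6 genes in leaf, root and flower, 1 bar per library (RPKM, linear axes from 0 that differ between panels, value above each bar). Root is the lowest library for all 5 vindoline-branch genes and the highest for T19H, at 8.96 RPKM.

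Placed among all 59220 transcripts, D4H ranked 1167 in leaf and NMT 2097, while both stood far lower in root, at ranks 18526 and 11647. In flower the highest rank of the branch was that of T16H, 6213, close to NMT at 6441. T16H ranked 12121 in leaf and 47359 in root, where 80.0% of transcripts had a larger value. DAT held similar places in leaf and flower, ranks 12274 and 12702, and ranked 36828 in root. T19H ranked 44326 in leaf and 9334 in root. Tissue specificity was summarised by tau, which is 0 for equal values in all 3 tissues and 1 for a value in a single tissue. It was 0.999 for T19H, 0.954 for D4H, 0.796 for T16H, 0.736 for NMT, 0.666 for 16OMT and 0.514 for DAT. The median of the 36900 transcripts reaching 1 RPKM in some tissue was 0.645. DAT was thus the 1 member less specific than the median transcript, since leaf and flower shared its signal.

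In leaf against root, all 5 branch genes passed the 2-fold line on the leaf side, as 22.8% of the 34057 transcripts compared did. The median log2 difference of the 5 was 2.60, against 0.07 over all transcripts compared. D4H had a log2 difference of 4.24 (26.4-fold in plain RPKM), and 1.17% of the transcripts compared stood as far or further above root. T16H was at 2.95, NMT at 2.60, DAT at 2.52 and 16OMT at 2.26 (5.88-fold in plain RPKM). This order turns with the pseudocount: with 0.1 in place of 1, T16H stood at 5.67, above D4H at 4.67, and DAT at 3.89, above NMT at 2.76. The plain ratio of T16H was the largest of the 5, 175-fold, over a root value of 0.04 RPKM. T19H passed it on the root side, as 30.2% of transcripts did, at a log2 difference of -3.30, and 3.12% stood as low or lower. With a pseudocount of 10 in place of 1, the count of branch genes higher in leaf was 3, T16H and DAT then being within 2-fold at 0.76 and 0.70, and T19H was at -0.92.

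In root against flower, 4 of the 5 branch genes were lower in root by the rule of size, as were 18.2% of the 33360 transcripts compared, and none was higher, as 26.7% were. The median log2 difference of the 5 was -1.32, against -0.03 over all transcripts compared. T16H stood at -4.14 and DAT at -2.41, and 1.35% and 4.21% of transcripts were as low or lower. T16H and DAT, the first and the last of the 5 genes in pathway order, were thus furthest below flower. 16OMT and NMT, methyltransferases both, lay close to each other at -1.32 and -1.27. D4H was within 2-fold, at -0.39, its flower value being nearly as low as its root value. T19H was higher in root by the rule of size, but no fold is given, as it is listed at 0 in flower. With a pseudocount of 10, T16H was the 1 branch gene past the line. At 4-fold, 2 of the 5 were past it, T16H and DAT.

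Leaf against flower separated the branch genes from each other. By the rule of size 2 of 5 were higher in leaf, NMT and D4H, where 17.2% of the 29737 transcripts compared were, and 1 was lower, T16H, where 18.1% were. D4H stood at a log2 difference of 3.85 (18.3-fold in plain RPKM), and 0.525% of transcripts were as high or higher. NMT was at 1.33, and 16OMT lay just under the line at 0.94, although its plain ratio was 2.01. DAT was at 0.11, as was the median of all transcripts compared, and at 0.00 with the libraries scaled by the median ratio. T16H was at -1.19, with flower 2.47-fold above leaf in plain RPKM, but at -0.68 with a pseudocount of 10. At 4-fold D4H was the 1 branch gene higher in leaf. T19H was not compared, since neither leaf nor flower reached 1 RPKM.

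**Figure D2:**
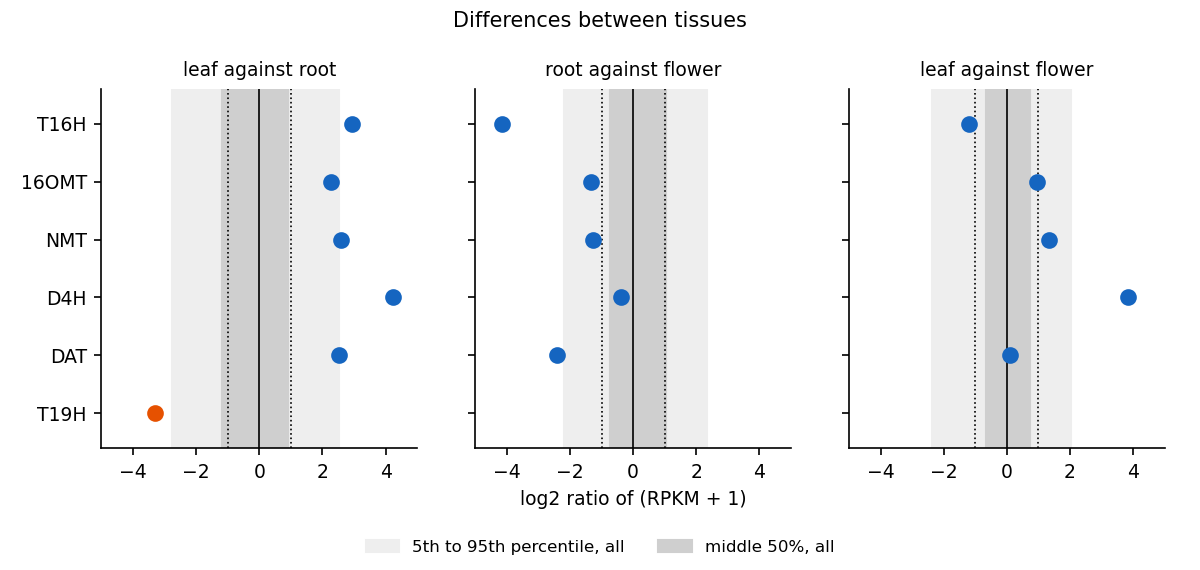
Log2 ratios of (RPKM + 1) between tissues for the vindoline-branch genes (blue) and T19H (orange), 1 library per tissue, over the spread of all transcripts compared (light grey, 5th to 95th percentile; dark grey, middle 50%; dotted lines, 2-fold). In leaf against root the branch genes lie between 2.26 and 4.24 and T19H at -3.30, and in leaf against flower the branch genes run between -1.19 and 3.85. T19H is left out where flower, at 0, is the other tissue.

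The 5 vindoline-branch genes followed here summed to 140.59 RPKM in leaf, against 12.53 RPKM in root and 53.73 RPKM in flower. Leaf exceeded root 11.2-fold and flower 2.62-fold. Much of the gap between leaf and flower lay in D4H, for the sum of the other 4 genes was 77.42 RPKM in leaf and 50.28 in flower, a ratio of 1.54. D4H made up 44.9% of the branch sum in leaf, 19.1% in root and 6.42% in flower. T16H made up 4.99% in leaf, 0.319% in root and 32.2% in flower. NMT had a similar share in leaf and flower, 30.8% and 30.9%, and 50.2% in root, where it was the most abundant step.

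Followed along the branch, the libraries had different profiles. In leaf the level was higher at each listed step from T16H to D4H: 16OMT exceeded T16H 2.89-fold, NMT exceeded 16OMT 2.14-fold and D4H exceeded NMT 1.46-fold. DAT then lay 9.22-fold below D4H, at nearly the level of T16H. In root, NMT was again 1.83-fold above 16OMT, but D4H lay 2.63-fold below NMT and DAT 6.46-fold below D4H. The root profile therefore had its lowest values at its ends, T16H and DAT. In flower, 16OMT lay 1.72-fold below T16H, NMT 1.65-fold above 16OMT, D4H 4.82-fold below NMT and DAT 1.82-fold above D4H. NMT and 16OMT were the 1 pair next to each other in this list with the later gene above the earlier in all 3 libraries. The lowest of the 5 was DAT in leaf, T16H in root and D4H in flower.

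**Figure D3:**
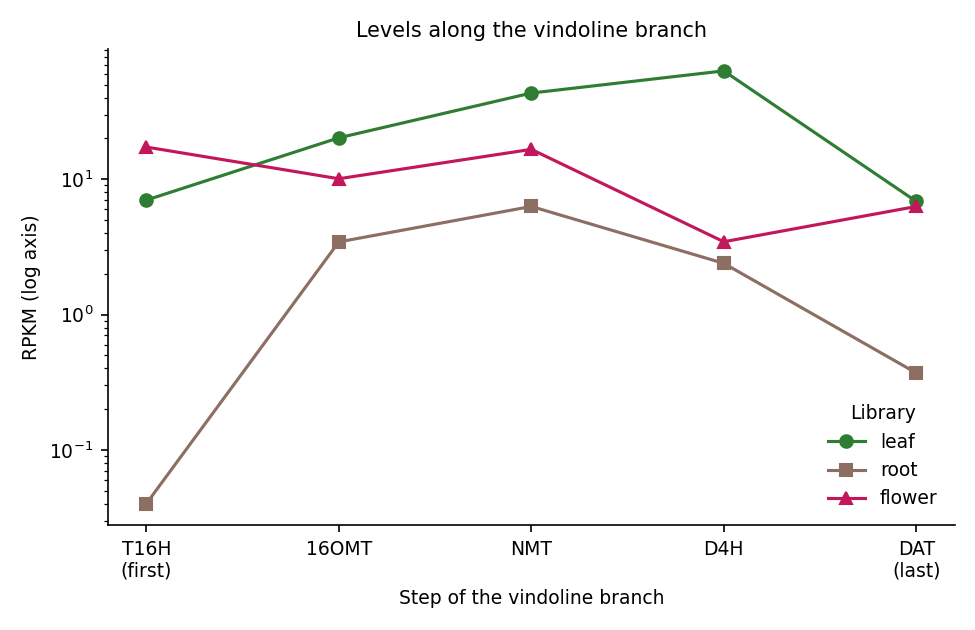
RPKM (log axis) of the 5 vindoline-branch genes in pathway order, 1 line per library. The leaf line peaks at D4H with 63.17 RPKM, the root line has its ends at 0.04 (T16H) and 0.37 (DAT), and the flower line has its lowest point at D4H with 3.45.

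Late steps were set against early ones within each library, as the mean log2(RPKM + 1) of D4H and DAT minus that of T16H and 16OMT. The difference was 0.78 in leaf, 0.00 in root and -1.32 in flower. The mean of the late steps was thus above that of the early ones in leaf, by less than 2-fold, and below it in flower. In RPKM the late pair summed to 70.02 RPKM in leaf, 2.76 RPKM in root and 9.74 RPKM in flower. The sum of the early pair was 27.24 RPKM in leaf, 3.48 RPKM in root and 27.37 RPKM in flower, nearly the same in leaf and flower. D4H and DAT differed in how they stood to the early genes. D4H exceeded T16H 9.01-fold in leaf and lay 5.01-fold below it in flower, whereas DAT lay below 16OMT in every library, 2.95-fold in leaf, 9.30-fold in root and 1.60-fold in flower. The difference in leaf thus came from D4H. That in flower came mostly from a low D4H and a high T16H, and DAT lying below 16OMT added to it. The root value depends on the pseudocount, being 0.62 with a pseudocount of 0.1 and -0.04 with 10, since T16H and DAT are near 0 there.

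The T16H and T19H transcripts followed here had their signal in different organs. T16H had 7.01 RPKM in leaf and T19H 0.01, and in flower T16H had 17.29 RPKM while T19H was listed at 0. In root T16H had 0.04 RPKM and T19H 8.96. The log2 ratio of (RPKM + 1), T16H against T19H, was 2.99 in leaf and -3.26 in root, and with a pseudocount of 10 it was 0.76 and -0.92. The plain ratios, T16H 701-fold above T19H in leaf and T19H 224-fold above T16H in root, have values of 0.01 and 0.04 RPKM under them and are rough. In root, T19H was more abundant than each of the 5 vindoline-branch genes, of which NMT came closest at 6.29 RPKM. In leaf it was below all 5, the lowest of which was DAT at 6.85 RPKM.

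A value near 0 outside root was more common among root transcripts than the like pattern was in the other libraries. Of 13223 transcripts with at least 5 RPKM in root, 408 (3.09%) were below 0.1 RPKM in both leaf and flower, as T19H was. The same was found for 29 of 14227 transcripts (0.204%) with at least 5 RPKM in leaf and below 0.1 elsewhere, and for 190 of 14065 (1.35%) in flower. The T16H pattern, at least 5 RPKM in leaf and flower and below 0.1 in root, was held by 44 of 11488 transcripts (0.383%). These limits of 5 and 0.1 RPKM were set after the values of T16H and T19H had been seen.

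**Figure D4:**
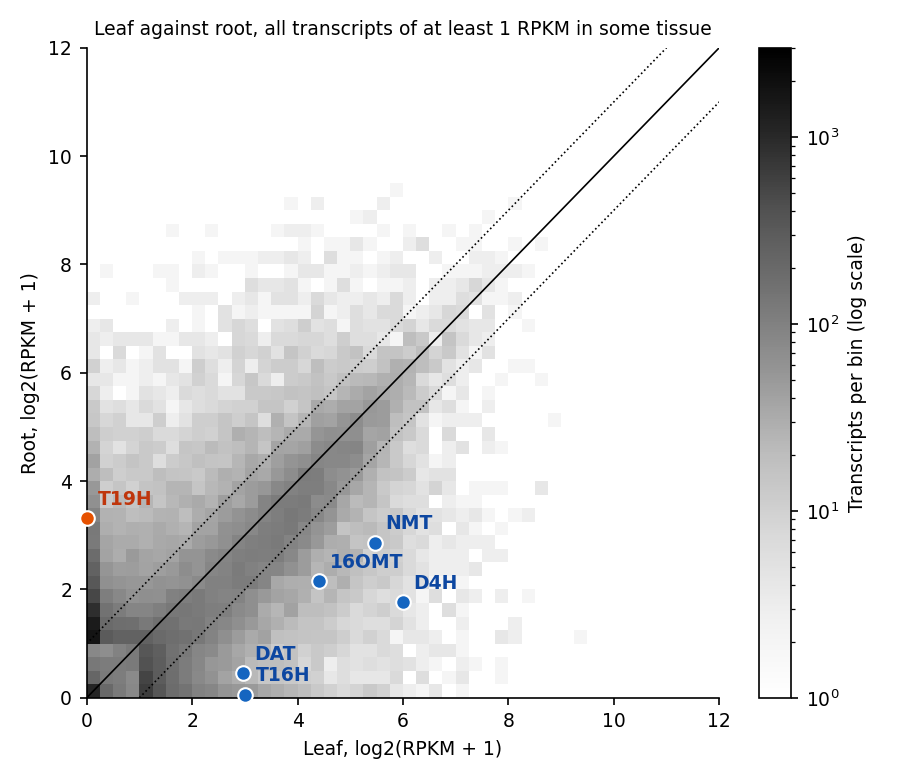
Leaf (x axis) and root (y axis) log2(RPKM + 1) of the transcripts reaching 1 RPKM in some tissue, as counts per bin in grey (log scale), with the vindoline-branch genes in blue and T19H in orange. The solid line marks equal values and the dotted lines 2-fold, and all 5 branch genes lie below the lower dotted line while T19H lies on the left edge at 3.32 in root.

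Of 13 other genes of the TIA pathway, 5 were past the 2-fold line on the leaf side in leaf against root, 7 on the root side and 1 within it. Of all transcripts compared, 22.8% were past it on the leaf side and 30.2% on the root side. Against flower, root was higher by the same rule for 10 of the 13 (26.7% of all transcripts compared) and lower for 3 (18.2%). Leaf was higher than flower for 7 (17.2% of all) and lower for 2 (18.1%). The 5 vindoline-branch genes, none of them highest in root, had a median log2 difference of -1.32 in root against flower. The 13 had 2.31, and all transcripts compared had -0.03. TDC, which makes tryptamine, had 14.5 RPKM in leaf, 191.23 RPKM in root and 2.29 RPKM in flower. SLS, which makes secologanin, had 87.86 RPKM in leaf, 576.67 RPKM in root and 13.27 RPKM in flower. SGD, which removes glucose from strictosidine upstream of tabersonine, had 139.81 RPKM in leaf, 33.8 RPKM in root and 4.25 RPKM in flower. Over the 13, root values ran from 8.14 RPKM for G10H, geraniol 10-hydroxylase, to 576.67 RPKM for SLS, with IS, iridoid synthase, at 9.06 RPKM and STR1, a strictosidine synthase, at 8.31 RPKM, while the highest of the vindoline branch was NMT at 6.29 RPKM. Like the branch genes, 3 of the 13 were lowest in root, namely HDR, the last enzyme of the MEP pathway, STR1 and PRX1. PRX1, a peroxidase that couples vindoline with catharanthine, was highest in flower like T16H, with 46.13 RPKM in leaf, 30.83 RPKM in root and 270.18 RPKM in flower. Several of the 13, among them TDC, SLS, SGD, G10H and IS, had been picked by the authors for real-time RT-PCR, as had D4H and DAT. They were picked as TIA genes that RNA sequencing found differentially expressed in root and leaf. Whether this meant against each other or against flower is not stated there. Some of the counts, in leaf against root or against flower, were therefore partly fixed by that choice, for the 13 and for the branch.

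Likeness of profile was measured over the 3 libraries as the root mean square distance of log2(RPKM + 1) values, each gene centred on its own mean, among the 6 genes and the 13. 16OMT and NMT were each nearest to the other, at a distance of 0.18, and both had HDR as the next nearest. DAT was nearest to 16OMT, at 0.47. With the pseudocount of 1, neither T16H nor D4H had a close partner, the nearest to T16H being DAT at 0.73. D4H was nearest not to a branch gene but to IS, at 0.87, and then to G10H, at 0.99. T19H was nearest to GPPS, a geranyl diphosphate synthase, at 0.24, with LAMT, loganate O-methyltransferase, next at 0.65. The partner of T19H depends on the pseudocount, an alternative chosen after seeing the data: with 0.1 it was LAMT at 0.88, with GPPS at 1.33, and with 10 it was STR2, another strictosidine synthase, at 0.41. With 10, T16H was nearest to STR1, at 0.07, and 16OMT to HDR, at 0.20. NMT and DAT stayed nearest to 16OMT, and D4H to IS, with both alternatives. Over 3 libraries such distances describe the profiles only.

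Without centring, so that the level counted too, and with the pseudocount of 1, the number of near transcripts in the whole assembly differed between the members. Such a number depends on how many transcripts lie at like levels, and no background count was made for other transcripts. Within a distance of 0.25 lay 2 transcripts for D4H, 5 for T16H, 9 for DAT, 38 for NMT, 75 for 16OMT and 228 for T19H. The nearest to D4H was Cr_TC04699, with 58.66 RPKM in leaf, 1.82 RPKM in root and 2.89 RPKM in flower. Cr_TC10523 was nearest to T16H, with 7.38 RPKM in leaf, 0.03 RPKM in root and 15.92 RPKM in flower. The nearest to DAT was Cr_TC10449, with 7.24 RPKM in leaf, 0.4 RPKM in root and 6.3 RPKM in flower. Cr_TC46995, at 0.01 RPKM in leaf and 9.02 RPKM in root and listed at 0 in flower, was nearest to T19H. The files give no names for these 4 transcripts.

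The lowest values carry the least weight. The number of transcripts at each step of 0.01 RPKM dropped most sharply after 0.05 in leaf and flower and after 0.06 in root, and if that drop marks what 1 read is worth on the shortest transcripts, 1 read is worth at most about 0.065 RPKM in leaf and flower and 0.075 in root. Under that assumption the T16H value in root and the T19H value in leaf rest on at least 1 read each, and the DAT value in root on at least 5. The root values of D4H, 16OMT and NMT rest on at least 32, 46 and 84 reads, and the T19H value in root on at least 120. The leaf and flower values of D4H rest on at least 972 and 53 reads. The spread between plants was not measured in these libraries. The authors also ran real-time RT-PCR with biological replicates on pathway genes that include D4H and DAT. They report patterns similar to those of RNA sequencing, and their RT-PCR values were not used here.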

How the data were processed

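RNA of leaf, root and flower (3 libraries, 1 per tissue, grouped by the tissue label) had been sequenced on the Illumina platform. High-quality reads without duplicates were aligned by the authors to their assembly of 59220 transcripts in CLC Genomics Workbench, allowing 2 mismatches, and RPKM was computed from uniquely mapped reads. The submitters' processing notes name DESeq. The deposited values were taken as RPKM, although their header reads base mean, because they have 2 decimals, fill each step from 0.01 upwards and sum to between 452743 and 471970 per library, unlike counts divided by a size factor. The authors' DESeq test needs counts and was not run, and the reads behind single values were not recovered, since transcript lengths were not used here.

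Log2 ratios of (RPKM + 1) were computed as deposited, with the rule of size given above, whose code was tested on simulated data. Members, lists and rules were chosen with earlier results of these data known. Named genes were the 6 members, 13 pathway genes whose identifiers the sources name, and the nearest transcript of D4H, T19H, T16H and DAT. Alternatives were pseudocounts of 0.1 and 10, a minimum of 10 RPKM or none, a 4-fold line, and scaling of libraries by total, upper quartile or median ratio. A RefSeq gene table matched 0 of the 59220 identifiers, so no coordinates or sequences are given. Python 3.11.15, numpy 2.4.6, pandas 2.3.3 and matplotlib 3.10.9 were used.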

Additional observations from a re-analysis of the deposited data

How the results depend on the processing

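Of the 8 alternatives, the pseudocount of 10 changed most. With it, 3 branch genes were past 2-fold on the leaf side in leaf against root and 1 on the flower side in root against flower, T19H in leaf against root stood at -0.92, T16H against T19H at 0.76 in leaf and -0.92 in root, and late minus early steps in flower at -0.66. Values under 10 RPKM in both tissues always fall within 2-fold with this pseudocount. With a minimum of 10 RPKM, 3 branch genes were higher in leaf than in root, since T16H and DAT reach 10 RPKM in neither. At 4-fold, 2 were lower in root than in flower and 1 was higher in leaf than in flower. The scalings moved log2 differences by up to -0.35 in leaf against root, 0.25 in root against flower and -0.12 in leaf against flower. Under the 3 scalings, the pseudocount of 0.1 and no minimum, the counts and each of the 16 further member differences kept their side of the 2-fold line, and those past it kept their direction. With a pseudocount of 10, 7 of the 16 fell within 2-fold. T19H in root against flower, for which no fold is given above, is counted in the 16 and in the 7. No paired analysis was possible because each tissue has 1 library, and no library could be left out. The values under 0.1 RPKM limit what can be said of T16H in root and T19H in leaf.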
